A study of Drosophila melanogaster with 3 samples.

Results

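Places in the fly transcriptome that were marked in 3 separate tandem purifications of the exon junction complex (EJC) are described. Peaks of the 3 deposited lists that overlapped by at least 1 bp on the same chromosome and strand were merged into loci, and a locus was kept when it held a peak of every list. This gave 4260 loci of 63358 merged loci, or 6.72% (95% interval 6.53 to 6.92). The other loci held peaks of 2 lists (13451) or of 1 list (45647). The loci were thus chosen by the positions of their peaks, so their overlap, width and shared ends are descriptions and carry no test. The RNA was from cultured S2 cells, a Drosophila melanogaster cell line of embryonic origin and hemocyte-like character, with 1 library per purification, so that no p-value is possible. Each culture expressed 1 tagged EJC protein under copper induction and had grown for 72 h before 2 h in cycloheximide at 100 µg/ml, an inhibitor of translation, which all 3 purifications share. Captured complexes were selected on oligo(dT) and digested before the second capture. In the eIF4AIII/Y14 purification tagged eIF4AIII was pulled down first and endogenous Y14 next. That is its label, while the track name inside the list mentions only Y14, so which purification it holds rests on the label. Tagged Btz was followed by eIF4AIII in Btz/eIF4AIII, and tagged Y14 by eIF4AIII in Y14/eIF4AIII. Micrococcal nuclease (MNase), which trims RNA that protein does not protect, acted for 15 min, with 0.3 units in the Y14/eIF4AIII purification and 0.5 units in the others. The labels do not say whether a tagged line is 1 clone, and the cell type was not checked by markers because peaks were not assigned to genes. A control purification was not analysed here.

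The EJC is laid down on mRNA during splicing, a short and fixed distance upstream of the place where 2 exons are joined. The RNA helicase eIF4AIII clamps the RNA, the heterodimer of Y14 and Mago nashi locks the clamp, and Btz (Barentsz, MLN51 in mammals) completes the core and helps link it to later steps. In flies the complex is best known for the localization of oskar mRNA in the oocyte, and translating ribosomes strip it from coding sequence.

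There were 34945 peaks in the eIF4AIII/Y14 list, 36393 in the Btz/eIF4AIII list and 16094 in the Y14/eIF4AIII list, and RNA under the calling threshold is not in them. The deposited score behaves as a mean number of reads per base and is named depth here. The scores of the libraries share no scale, so depth is given as a percentile within its own list, where 100 is the deepest peak. Intervals on shares are exact binomial and those on medians use order statistics, both at 95%. They cover counting error only and treat loci as independent, although neighbouring loci can lie on 1 transcript. Within each list no 2 peaks of a strand were closer than 25 nt. Coordinates are 1-based and follow the names of release 5 of the genome, for which no annotation was used here. Loci are therefore named by position, no gene is assigned and no sequence is printed.

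The loci in all 3 lists drew on a minor part of the longer lists and a larger part of the short one. They held 5155 eIF4AIII/Y14 peaks (14.8% of that list), 4573 Btz/eIF4AIII peaks (12.6%) and 4710 Y14/eIF4AIII peaks (29.3%). Most loci, 3309 or 77.7%, were built of exactly 1 peak from each list. Where a list was split, it was most often eIF4AIII/Y14, which had several peaks in 673 loci. Btz/eIF4AIII had several in 285 and Y14/eIF4AIII in 370. The minus strand carried 53.1% of the loci in all 3 lists (51.6 to 54.6) and 51.3% of the loci of 1 list (50.8 to 51.7), so the strands were used nearly evenly in both classes.

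Loci in all 3 lists were wide. Their median width was 100 nt (95% interval 98 to 103; quartiles 67 and 154), against 62 nt for loci of 2 lists and 37 nt for loci of 1 list. Merging lengthens a locus by construction, so the peaks themselves were also compared. The bases covered by 1 list within a locus had a median of 45 nt in eIF4AIII/Y14, against 28 nt in loci of 1 list. In Btz/eIF4AIII these medians were 76 and 51 nt, and in Y14/eIF4AIII 57 and 43 nt. Wider peaks meet the overlap rule more easily, and the part of this in the difference was not tested. Although the class holds 6.72% of the loci, it spans 15.7% of all merged bases (539 kb), against 56.3% for the loci of 1 list.

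The bases marked by all 3 lists at once were under 50% of the locus at most loci. They reached 50% at 993 loci (23.3%) and made up the whole locus at 49. The common stretch had a median of 27 nt (26 to 28; quartiles 10 and 41), or 28.3% of the locus width. At 2655 loci (62.3%) it reached 20 nt or more, and at 164 loci (3.85%) 100 nt or more. Summed over all loci the common bases came to 137 kb, which was 52.4% of the eIF4AIII/Y14 bases there, 43.7% of the Y14/eIF4AIII bases and 31.6% of the Btz/eIF4AIII bases. The Btz/eIF4AIII peaks were thus the widest and shared the smallest part of themselves.

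**Figure D1:**
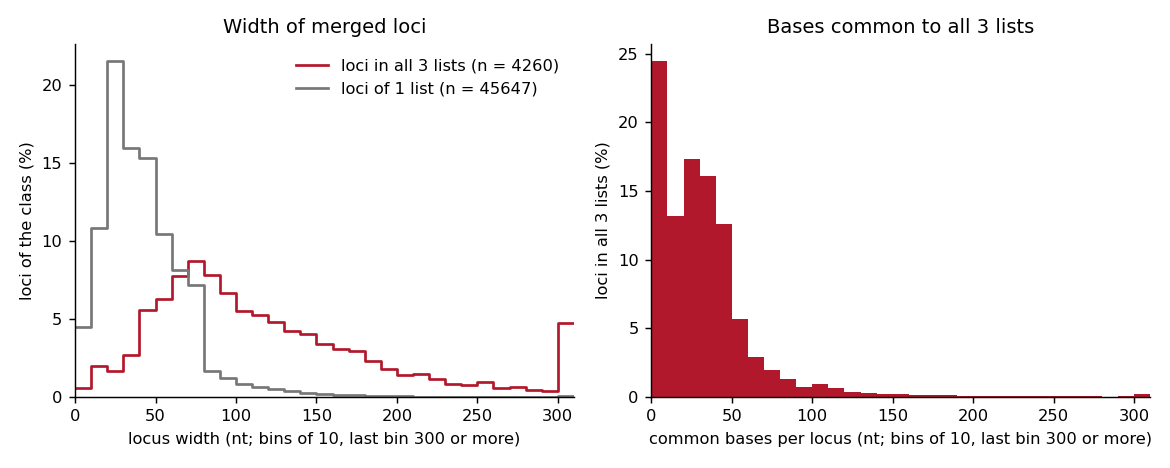
Left, the distribution of locus width in bins of 10 nt, as percent of the 4260 loci in all 3 lists (red) and of the 45647 loci of 1 list (grey). Right, the number of bases covered by all 3 lists at once in the loci in all 3 lists, whose first bin includes the 631 loci with none; medians are 100 nt, 37 nt and 27 nt.

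Not every such locus had a base in common. In 631 loci (14.8%; 13.8 to 15.9) no base was covered by all lists at once. In 430 of these the Btz/eIF4AIII peak bridged eIF4AIII/Y14 and Y14/eIF4AIII peaks that did not touch each other. The Y14/eIF4AIII peak was the bridge in 108 and the eIF4AIII/Y14 peak in 55, while in 38 each pair overlapped at a different place. The loci without a common base had a median width of 132 nt, against 94 nt for the 3629 loci with a common base. At the edge of the rule, 225 loci in all 3 lists had their weakest overlap at 1 to 5 bp and a median width of 74 nt. Outside it, 164 loci of 2 lists missed the third list by 0 to 4 nt and had a median width of 69.5 nt. The loci on both sides of the rule lay near the middle of their lists by depth, with medians from 49.95 to 53.3 just inside and from 53.4 to 55.8 just outside.

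The ends of the peaks agreed to the base far more often than at any other single offset. Between Btz/eIF4AIII and eIF4AIII/Y14 the 5′ ends were identical at 856 loci (20.1%; 18.9 to 21.3) and the 3′ ends at 1014 (23.8%; 22.5 to 25.1). Between Y14/eIF4AIII and Btz/eIF4AIII these were 801 (18.8%) and 1003 (23.5%), and between Y14/eIF4AIII and eIF4AIII/Y14 they were 638 (15.0%) and 664 (15.6%). The pair purified through the same 2 proteins in reversed order thus had identical ends least often, with 1 library each. Its amounts of MNase differed, as did those of Y14/eIF4AIII and Btz/eIF4AIII. In loci of 2 lists the same pairs had identical 3′ ends in 20.8%, 14.5% and 13.8% of cases, in the order of the pairs above. The intervals of the pairs with Y14/eIF4AIII overlapped there (13.2 to 15.9 and 12.1 to 15.6). For 5′ ends the shares in loci of 2 lists were 19.3%, 20.7% and 14.9%, each within 2 percentage points of the loci in all 3 lists.

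Where the ends of Btz/eIF4AIII and eIF4AIII/Y14 differed, they differed in a direction. The Btz/eIF4AIII peak began upstream of the eIF4AIII/Y14 peak at 53.1% of the loci and downstream of it at 26.8%. At the other end it stopped downstream of it at 56.9% and upstream of it at 19.2%. Loci of these 2 lists only leaned the same way, with 52.6% and 28.1% at the 5′ end and 60.4% and 18.8% at the 3′ end. Between Y14/eIF4AIII and eIF4AIII/Y14 the lean was smaller at the loci in all 3 lists. There the Y14/eIF4AIII 5′ end lay upstream at 44.9% and downstream at 40.1%, and its 3′ end upstream at 36.7% and downstream at 47.7%. Over the whole lists Btz/eIF4AIII peaks were also wider, with a median of 53 nt against 31 nt in eIF4AIII/Y14. Btz/eIF4AIII alone reached farthest 5′ at 1517 loci (35.6%) and farthest 3′ at 1443 (33.9%), and it spanned the whole locus at 1568 (36.8%). The eIF4AIII/Y14 list was alone in reaching farthest 3′ at 541 loci (12.7%). Among loci of 1 peak per list, the eIF4AIII/Y14 peak lay within both others at 26.6%, the Y14/eIF4AIII peak at 18.9% and the Btz/eIF4AIII peak at 7.40%.

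**Figure D2:**
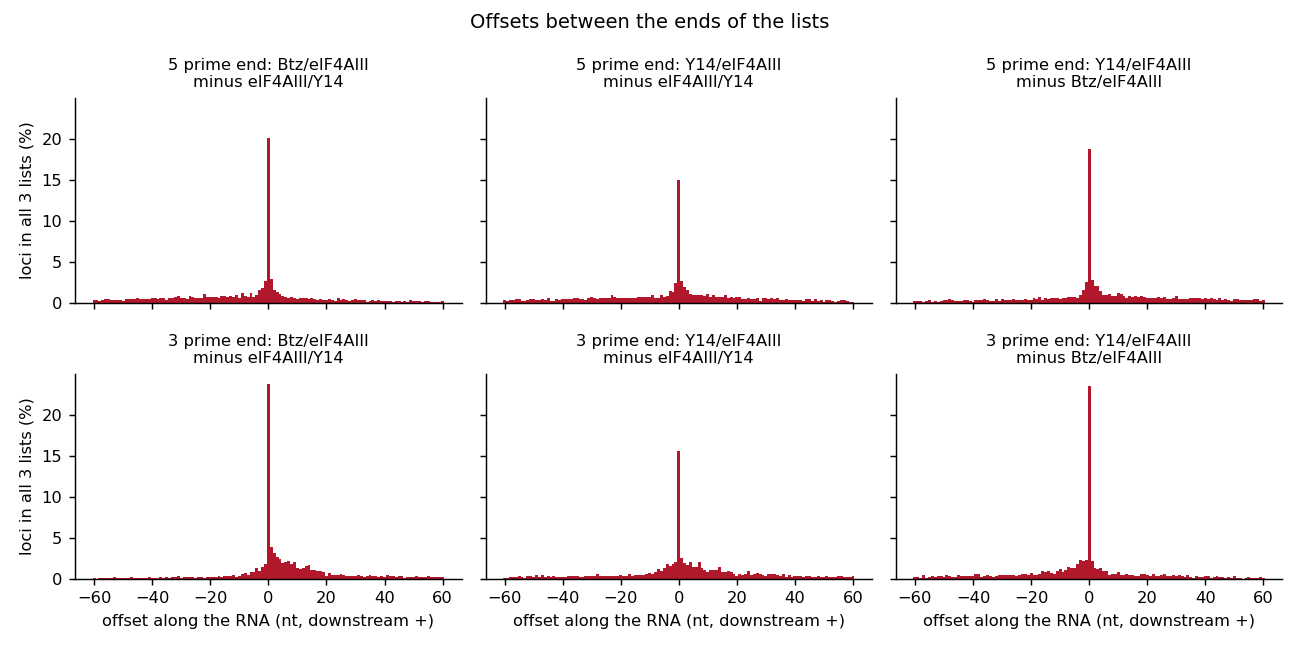
Offset in nt between the ends of each pair of lists along the RNA at the 4260 loci in all 3 lists (x axis, positive where the first-named list ends farther downstream), as percent of loci per nt (y axis); upper row 5′ ends, lower row 3′ ends. Each panel has a single spike at 0, between 15.0% and 23.8% of the loci, and the lower left panel leans to positive offsets.

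All 3 lists together had the same 5′ end at 454 loci (10.7%; 9.75 to 11.6) and the same 3′ end at 513 (12.04%; 11.1 to 13.1). With a tolerance of 5 nt the shares were 18.97% (17.8 to 20.2) at the 5′ end and 23.9% (22.6 to 25.2) at the 3′ end. The 3′ end was the tighter one also by its spread, with a median range over the lists of 23 nt (22 to 25) against 34.5 nt (33 to 36) at the 5′ end. Both ends were identical at 62 loci (1.46%) and at least 1 end at 905 (21.2%), while at 3355 loci (78.8%) neither was.

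Loci fixed at the 3′ end differed in shape from those fixed at the 5′ end. With the 3′ end alone identical (451 loci), the common stretch had a median of 37 nt and the eIF4AIII/Y14 peaks spanned 50 nt. With the 5′ end alone identical (392 loci), the values were 17 nt and 27 nt. Counting inward from the identical 3′ end, at least 50% of the 513 loci were covered as far as base 45 by eIF4AIII/Y14, base 58 by Btz/eIF4AIII and base 40 by Y14/eIF4AIII peaks. Inward from the identical 5′ end this held over the 454 loci as far as base 19 by eIF4AIII/Y14, base 45 by Btz/eIF4AIII and base 25 by Y14/eIF4AIII peaks. The base 20 nt inside the 3′ end was covered at 88.1% of the loci in eIF4AIII/Y14 (85.0 to 90.8), and the base 20 nt inside the 5′ end at 45.8% (41.2 to 50.5). In Btz/eIF4AIII these were 88.3% and 74.2%, and in Y14/eIF4AIII 80.1% and 57.5%. The loci fixed at the 3′ end alone also ranked higher in eIF4AIII/Y14, at a median percentile of 85.2, against 58.3 for those fixed at the 5′ end alone. In Y14/eIF4AIII the medians were close, 60.1 and 57.5.

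**Figure D3:**
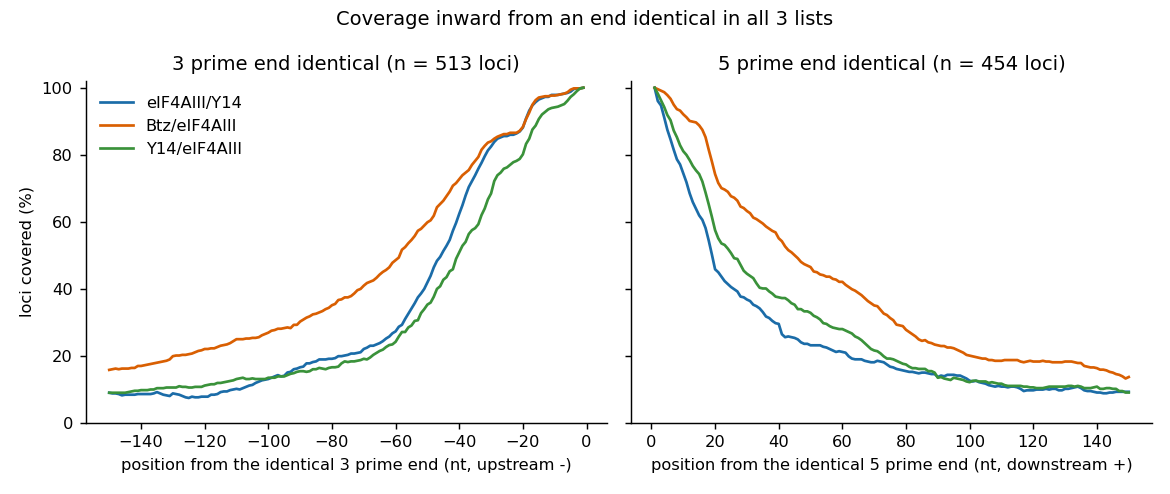
Percent of loci covered by each list (y axis) at each position inward from an end that is identical in all 3 lists (x axis, nt), for 513 loci with an identical 3′ end (left) and 454 with an identical 5′ end (right). All curves start at 100% by choice of the loci; the eIF4AIII/Y14 curve stays at 88.1% at 20 nt on the left and is at 45.8% on the right.

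Ends that agreed often had a neighbouring locus 50 to 75 nt away, a range of gaps already known to be frequent in these lists. Short Drosophila introns have lengths of this order, but peaks were not placed on introns here. Of all merged loci, 14.7% had the next locus of the strand 50 to 75 nt downstream, and the same share, 14.7%, had one at that distance upstream. Each gap is counted from both of its loci, so these shares are equal by construction. Loci in all 3 lists had one downstream in 27.5% (26.2 to 28.9), against 10.3% (10.0 to 10.6) of the loci of 1 list. Upstream it was 19.6% (18.4 to 20.8) against 13.4% (13.0 to 13.7). The neighbour at this distance was thus on the downstream side more often for loci in all 3 lists. Loci of 2 lists leaned the same way, with 25.6% downstream and 17.7% upstream. The opposite lean of loci of 1 list follows from these by construction and is no separate result.

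Identical ends went with these gaps, which are measured from the outer border of the merged locus. Where the lists end apart, the list that reaches farthest thus sets the gap. The part of this in the differences below was not tested. Where the 3′ end was identical in all 3 lists, 243 of 513 loci (47.4%; 43.0 to 51.8) had the next locus 50 to 75 nt downstream. Where the 3′ ends lay over 20 nt apart this was 20.8% (19.2 to 22.6). An identical 5′ end had a neighbour 50 to 75 nt upstream at 186 of 452 loci (41.2%; 36.6 to 45.8), against 16.7% (15.4 to 18.2) where the 5′ ends lay over 20 nt apart. Ends that were close but not identical did not follow in order of distance. Within 5 nt the shares were 29.0% downstream and 13.8% upstream, and at 6 to 20 nt they were 31.5% and 19.9%. The files hold peaks whose track names include the word clipped, and what clipping did to the borders is not stated there.

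By depth, the loci in all 3 lists ranked above the loci of 1 list in every list. The deepest peak of a locus had a median percentile of 65.9 in eIF4AIII/Y14 (64.3 to 67.7), against 44.0 for loci of 1 list. In Btz/eIF4AIII the medians were 65.3 (63.9 to 66.6) and 45.6. The Y14/eIF4AIII medians were 60.2 (58.7 to 62.0) and 42.3. Loci shared with only 1 other list had medians between those of these classes. In eIF4AIII/Y14 they were 59.3 where the other list was Btz/eIF4AIII and 48.8 where it was Y14/eIF4AIII. In Btz/eIF4AIII they were 52.9 with eIF4AIII/Y14 and 50.4 with Y14/eIF4AIII. In Y14/eIF4AIII they were 50.6 with eIF4AIII/Y14 and 53.7 with Btz/eIF4AIII. A locus with several peaks of a list is placed by the deepest, which can raise its percentile. At loci of exactly 1 peak per list the medians were lower, 56.7 for Y14/eIF4AIII and 61.5 for Btz/eIF4AIII. The eIF4AIII/Y14 median was then 64.7, and each stayed above that of the loci of 1 list. Above percentile 75, by the deepest peak, were 40.9% of the loci in all 3 lists and 18.3% of the loci of 1 list in eIF4AIII/Y14. By definition 25% of the peaks of a list lie there, which is no reference value for shares of loci. For Btz/eIF4AIII the shares were 38.2% and 21.2%. For Y14/eIF4AIII they were 32.7% and 20.8%. Among loci shared with only 1 other list, the eIF4AIII/Y14 shares were 33.8% with Btz/eIF4AIII and 20.7% with Y14/eIF4AIII. The shares of such loci in Btz/eIF4AIII and Y14/eIF4AIII ran from 24.0% to 27.2%.

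Part of the difference in depth between loci in all 3 lists and loci of 1 list went with width. Among Y14/eIF4AIII peaks of 41 to 60 nt the median percentile was 62.8 in loci in all 3 lists and 63.2 in loci of 1 list, and for 61 to 100 nt it was 70.1 and 69.5. In that list the depth of the classes was thus nearly the same at these widths alone. It was 39.8 against 20.1 at 1 to 20 nt, 33.6 against 24.1 at 21 to 40 nt and 73.8 against 64.1 over 100 nt. In eIF4AIII/Y14 the classes stayed apart at each width, for instance 76.1 against 56.2 at 41 to 60 nt and 62.1 against 39.8 at 61 to 100 nt. In Btz/eIF4AIII the values were 50.9 against 42.9 and 67.9 against 61.2 at those widths.

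In steps of 10% of depth, the membership changed most at the top of the longer lists. Of the deepest 10% of the eIF4AIII/Y14 peaks, 28.8% lay in loci in all 3 lists (27.3 to 30.3) and 24.7% in loci of 1 list. In the step below it these were 15.9% and 47.0%. In Btz/eIF4AIII the deepest 10% had 24.7% and 38.0% and the next step 14.5% and 51.4%. In Y14/eIF4AIII the lowest 10% had 22.0% in loci in all 3 lists and 57.4% in loci of 1 list. Between percentiles 70 and 80 these were 38.5% and 35.2%, and between 80 and 90 they were 36.4% and 37.1%. In its deepest 10% they were 35.5% (33.1 to 37.9) and 38.5% (36.1 to 40.9), so loci in all 3 lists did not hold the larger share there.

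**Figure D4:**
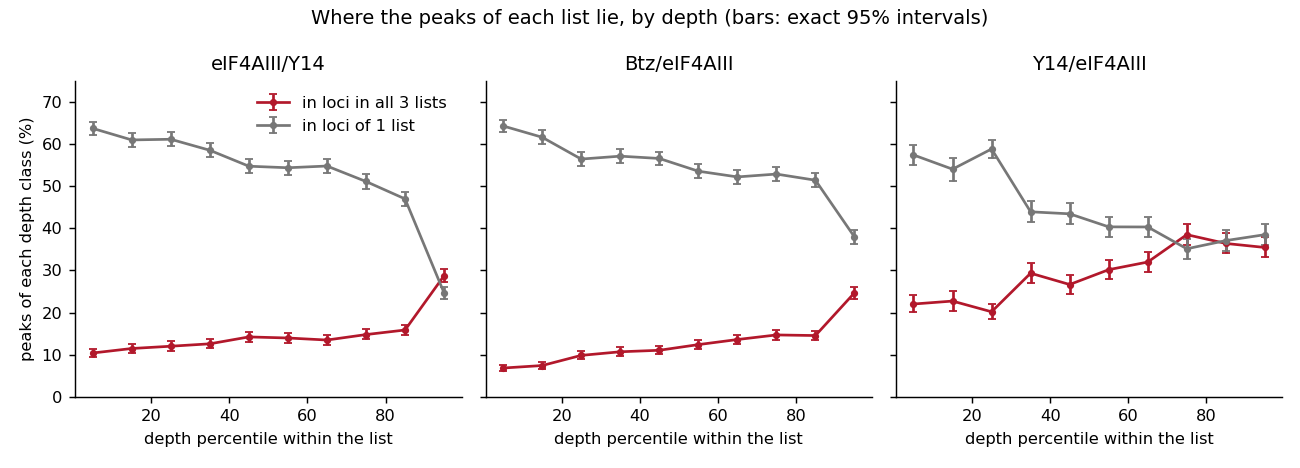
Percent of the peaks in each 10% step of depth (x axis, percentile within the list) that lie in loci in all 3 lists (red) or in loci of 1 list (grey), with exact 95% intervals, 1 panel per list. In the deepest step of eIF4AIII/Y14 the red point, 28.8%, is above the grey one, 24.7%; the Y14/eIF4AIII curves meet above percentile 70.

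A locus that ranked high in 1 list often ranked lower in the others. The median difference between the highest and the lowest of its 3 percentiles was 44.8 points (43.5 to 45.8). Percentile 75 was passed in every list by 333 loci (7.82%), in exactly 2 lists by 1041 (24.4%) and in exactly 1 by 1679 (39.4%). Taken singly, the lists had 40.9% (eIF4AIII/Y14), 38.2% (Btz/eIF4AIII) and 32.7% (Y14/eIF4AIII) of these loci above it. The joint shares that unrelated ranks would give were not computed. At 943 loci (22.1%) a peak above percentile 75 in 1 list met a peak at or below percentile 25 in another. Only 34 loci were at or below percentile 25 throughout.

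The loci whose lowest percentile was highest include some with nearly equal borders. First was 2R 10511513 to 10511578, plus strand, 66 nt wide with 61 nt in common. Its eIF4AIII/Y14 peak ranked 33 (4675 reads per base), its Btz/eIF4AIII peak 28 (5446) and its Y14/eIF4AIII peak 4 (17491). All 3 lists began there at the same base, and their 3′ ends lay within 5 nt. The next, 2R 13504256 to 13504428, plus strand, had 162 of its 173 nt in common and ranks of 51, 1 and 3 in the same order of lists, which is kept for the ranks below. The one after it, 3L 224112 to 224189, plus strand, had 70 of 78 nt in common and ranks of 3, 132 and 12. In these loci the lists agreed on nearly the whole stretch.

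Others of the first 10 agreed on 1 side only. At 3R 26033252 to 26033355, minus strand, the 5′ ends lay within 1 nt and the 3′ ends were 61 nt apart, with an eIF4AIII/Y14 peak of 42 nt against 103 nt in Btz/eIF4AIII and 85 nt in Y14/eIF4AIII. Its ranks were 64, 142 and 68. At 3L 5757080 to 5757186, minus strand, the 5′ ends again lay within 1 nt, 85 of 107 nt were common and the ranks were 502, 7 and 53. At 2R 8048629 to 8048809, minus strand, the 5′ ends lay within 1 nt, the 3′ ends were 14 nt apart and 166 of 181 nt were common, with ranks of 327, 98 and 33. Agreement on both sides was seen at X 17040105 to 17040251, minus strand, where the 5′ ends lay within 2 nt and the 3′ ends within 1 nt. Its ranks were 173, 38 and 11.

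The remaining 3 of the 10 were wider. The locus 3L 3893066 to 3893332, minus strand, was 267 nt wide with 150 nt in common and ranks of 189, 52 and 73. The locus 3R 1421955 to 1422286, minus strand, was 332 nt wide with 72 nt in common and ranks of 17, 317 and 42. The locus 2L 5031878 to 5032374, plus strand, had both borders identical in all 3 lists over 497 nt. Inside it lay 5 eIF4AIII/Y14 peaks, 1 Btz/eIF4AIII peak and 3 Y14/eIF4AIII peaks, so that 92 nt were common.

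The longest agreement lay close by. The locus with the most common bases was 2L 5032500 to 5033950, plus strand, with 924 of 1451 nt in all lists and both borders identical. It held 9 eIF4AIII/Y14 peaks and 2 Y14/eIF4AIII peaks under 1 Btz/eIF4AIII peak, at percentiles of 76.5 in eIF4AIII/Y14, 95.7 in Y14/eIF4AIII and 98.3 in Btz/eIF4AIII. The next such locus of the strand, 2L 5034013 to 5034981, followed after 62 nt and had 532 nt in common, the fifth most. The others of the 5 were 2L 21678188 to 21679618, minus strand, with 708 nt, 3L 569719 to 571014, plus strand, with 685 nt and 2R 7781060 to 7783017, plus strand, with 668 nt. All but the fifth are also among the 5 widest loci. The widest of all, 3R 23526369 to 23528651, plus strand, was different in kind. Its 2283 nt were a single Btz/eIF4AIII peak of rank 86, over 1 eIF4AIII/Y14 peak of 20 nt and 1 Y14/eIF4AIII peak of 40 nt that shared no base.

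Of the 62 loci with both ends identical, those ranked next after 2L 5031878 were X 17040280 to 17040578 (299 nt), 3R 19165904 to 19166249 (346 nt), 3L 2611639 to 2611710 (72 nt) and 2L 8224593 to 8225042 (450 nt), all on the minus strand. The 3L locus was a single peak of the same 72 nt in each list, with a depth of 1782 reads per base (eIF4AIII/Y14), 3235 (Btz/eIF4AIII) and 839 (Y14/eIF4AIII). Most of the 62 were short, with a median width of 18.5 nt.

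The largest differences of rank were 3 loci on 2R, minus strand, all deep in eIF4AIII/Y14. At 5322841 to 5322958 that list had 1432 reads per base, Btz/eIF4AIII 142 and Y14/eIF4AIII 1.41, or percentiles of 99.1, 56.5 and 0.037. At 3212082 to 3212161 it had 2942 reads per base against 2.85 in Btz/eIF4AIII and 43.6 in Y14/eIF4AIII. At 1091257 to 1091344 the eIF4AIII/Y14 peak had 2067 reads per base, the Btz/eIF4AIII peak 54.2 and the Y14/eIF4AIII peak 2.27.

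The distances between loci in all 3 lists covered a wide range. The median distance to the next such locus on the strand was 2095 nt (1741 to 2559), with quartiles of 224 and 47450 nt. This value rests on the rule, since it was 6228 nt with exactly 1 peak per list, 12205 nt with lists of equal length, 25435 nt in the upper 50% by depth and 34845 nt with an overlap of 50% of both peaks. It was at most 75 nt in 14.3% of cases, 200 nt in 23.9%, 1000 nt in 42.4% and 5000 nt in 56.9%. Distances to the next locus of any kind, which do not depend on the size of the class, had a median of 80 nt downstream (77 to 84) against 233 nt (229 to 238) for loci of 1 list. For loci of 2 lists this median was 115 nt (111 to 118). Within 1000 nt a neighbour of any kind was found for 87.1% of loci in all 3 lists. The share was 84.8% for loci of 2 lists and 74.3% for loci of 1 list. The closest pair of loci in all 3 lists touched, on 3R, minus strand, where the one from 20386817 to 20386992 had another with no base between. The most distant, on Uextra, minus strand, from 5143828 to 5143919, had its next such locus 7728649 nt on.

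The next locus downstream of a locus in all 3 lists was most often of 1 list (2044 of 4259, 48.0%), then of 2 lists (1222, 28.7%). A neighbour of the same class was the least frequent, but more frequent than after other loci. The next locus downstream was in all 3 lists for 993 of 4259 loci (23.3%; 22.1 to 24.6), against 4.80% (4.61 to 5.00) for loci of 1 list and 6.72% for all loci. The loci in all 3 lists had the higher share in each range of distance measured. With a neighbour 50 to 75 nt downstream it was in all 3 lists for 31.2% (28.6 to 34.0) against 4.77% (4.18 to 5.42), and with one over 5000 nt downstream for 8.06% (5.12 to 11.9) against 3.35% (2.92 to 3.84). Unbroken runs, with no other locus between, numbered 2581 of 1 locus, 507 of 2, 112 of 3, 36 of 4, 13 of 5, 10 of 6, 5 of 7 and 2 of 8, beside a single run of 9.

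That run lay on 3L at 830618 to 832956, minus strand. Its 9 loci were 71 to 598 nt wide, with gaps of 1 to 215 nt. Their eIF4AIII/Y14 percentiles lay between 9.57 and 98.0. The Btz/eIF4AIII percentiles lay between 27.9 and 99.997, and the Y14/eIF4AIII percentiles between 11.4 and 99.9. High and low ranks thus stood side by side in it, and 2 of its loci had no common base. The run is part of the longest chain of such loci with at most 1000 nt between them, 20 loci from 826946 to 833209. A chain of equal number lay on 3L at 6197438 to 6208737, minus strand.

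In all, 2620 loci (61.5%; 60.02 to 63.0) had another such locus within 1000 nt, in 823 chains, of which 23 held 10 loci or more. The 1640 lone loci were narrower, with a median of 87.5 nt, against 112 nt for chained ones. Chained and lone loci had close depth in eIF4AIII/Y14, at median percentiles of 66.6 and 65.0. They lay farther apart in Btz/eIF4AIII, at 69.0 (67.6 to 70.5) and 56.6 (53.7 to 59.3), and in Y14/eIF4AIII, at 64.0 (62.2 to 65.5) and 54.7 (52.6 to 57.2).

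**Figure D5:**
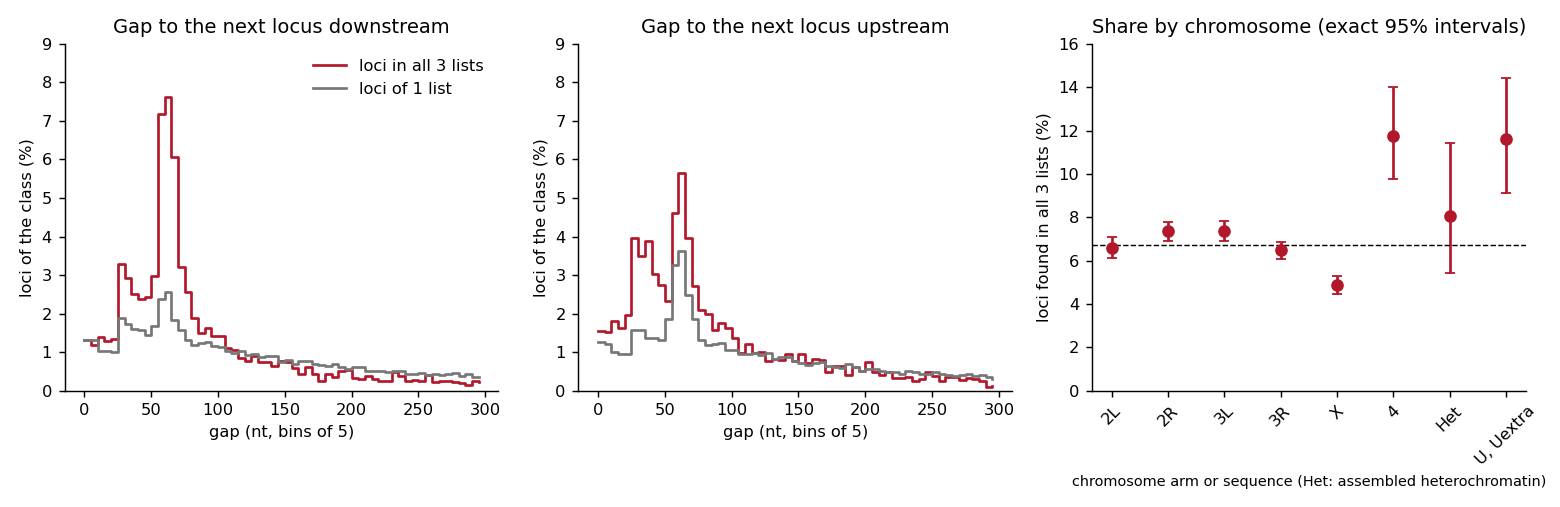
Left and middle, the gap to the next locus of any kind downstream and upstream (x axis, nt, bins of 5) as percent of loci in all 3 lists (red) and of loci of 1 list (grey); the red curves peak in the bin that starts at 60 nt, with 7.63% downstream and 5.64% upstream. Right, the percent of the loci of each chromosome arm or sequence group that were found in all 3 lists, with exact 95% intervals; the dashed line is 6.72%.

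The share of loci found in all 3 lists differed between chromosomes. On the large autosome arms it ran from 6.48% on 3R (990 of 15283 loci) and 6.59% on 2L (722 of 10962) to 7.34% on 2R (987 of 13443) and 7.36% on 3L (869 of 11803). On X it was lower, at 4.86% (485 of 9989; 4.44 to 5.30). On the small chromosome 4, much of which is packed like heterochromatin though its genes are active, it was higher, at 11.8% (110 of 935; 9.77 to 14.005). Over its first to last peak chromosome 4 held 86.9 such loci per Mb, against 21.6 on X and 31.4 to 46.7 on the large autosome arms. Loci of any kind were also densest on chromosome 4, at 738 per Mb, against 446 on X and 477 to 636 on the large autosome arms.

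The excess on chromosome 4 was on its minus strand, where 87 of 609 loci (14.3%; 11.6 to 17.3) were in all 3 lists, against 23 of 326 (7.06%; 4.52 to 10.4) on the plus strand. Its largest chain, 12 loci from 674496 to 678724 on the minus strand, took part in this. Without that chain the share was 10.7% (8.77 to 12.9) for the chromosome and 12.7% (10.1 to 15.7) for the minus strand, whose interval then overlaps that of the plus strand. On X the shares were 4.99% on the minus and 4.72% on the plus strand, with overlapping intervals. Peaks of chromosome 4 were deep in eIF4AIII/Y14, with a median percentile of 67.9 over all its peaks, but not in Btz/eIF4AIII, with 41.8. For X the medians were 45.7 and 49.9, and the part of depth in these shares was not tested. Loci on X that were in all 3 lists had a median of 22 nt in common, against 26 to 28 nt on the other arms.

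Outside the arms there were few such loci. Assembled heterochromatin held 28 such loci of 347 (8.07%; 5.43 to 11.5). The unplaced sequences U and Uextra held 69 of 595 (11.6%; 9.14 to 14.4), and those were of low rank in eIF4AIII/Y14 and Btz/eIF4AIII, with median percentiles of 22.8 and 27.0, beside 46.5 in Y14/eIF4AIII. Many repeats lie in these sequences, and the placing of reads with several matches is not stated in the labels. YHet (2 loci) and the mitochondrial genome (1 locus) held none, which with so few loci says little.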

How the data were processed

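RNA bound by the exon junction complex in S2 cells was sequenced after 3 tandem purifications, with 1 library each, grouped by the labels. For each library the authors deposited a list of peaks with strand. The deposited score is a signal value, a mean read coverage per base by its behaviour, since score times width was whole (tolerance 0.001) for 100% of the peaks. The submitters' processing notes list Bowtie and SAMtools, with no version or role. Not given in the sources used here were the peak caller, its threshold, the genome build and the reads per library, so depth sets no interval. PCR copies cannot be recognised without molecular identifiers. Sequence names are those of release 5, and the annotation of release 6 was not used. Peaks were merged by overlap of at least 1 bp on a strand with Python 3.11.15, numpy 2.4.6, pandas 2.3.3 and scipy 1.17.1, and the functions were tested on simulated data. In loci with several peaks of a list, its outermost ends and its deepest peak were used. Loci named are the 10 with the highest lowest percentile, the 5 with most common bases, the 5 widest, 5 with both ends identical, the 3 of largest rank difference, the longest run and the closest and most distant pairs. The members, measures and this rule were chosen with earlier results of these data known. Chained loci, width classes, coverage inward from identical ends and gaps of 50 to 75 nt were examined after values had been seen. Figures were drawn with matplotlib 3.10.9. Alternatives changed the overlap, short peaks, depth threshold, list length and several-peak loci.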

Additional observations from a re-analysis of the deposited data

How the results depend on the processing

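Joining touching peaks gave 4281 loci and moved no median or share out of its interval. With an overlap of 10 nt the common bases had a median of 29 nt, the distance to the next such locus 2931 nt, and the share in all 3 lists was 9.73% on chromosome 4 and 4.05% on X (5.87% over all loci). With an overlap of 50% of both peaks, 1602 loci were in the class, 70.5 nt wide with 37 nt in common and 34845 nt apart. At least 1 end then agreed within 5 nt at 56.2% (37.2% as reported), the eIF4AIII/Y14 percentile was 73.9 and that of Btz/eIF4AIII 62.3, and chromosome 4 and X had 4.24% and 1.47% (2.13% over all). Without peaks under 10 nt the width was 104 nt, end agreement 34.6% and distance 2769 nt. The upper 50% of each list by depth gave 1242 loci, 128 nt wide with 32 nt in common and 25435 nt apart, a percentile of 58.4 in Y14/eIF4AIII, and 6.28% and 2.32% on chromosome 4 and X (3.55% over all). Lists of equal length gave 1625 loci, 116 nt wide with 31 nt in common and 12205 nt apart, end agreement of 41.05%, a percentile of 66.2 in Y14/eIF4AIII, and 7.33% and 3.01% (4.24% over all). Loci of exactly 1 peak per list were 84 nt wide with 25 nt in common and 6228 nt apart, with end agreement of 38.9%, percentiles of 61.5 in Btz/eIF4AIII and 56.7 in Y14/eIF4AIII, and 9.68% and 4.00% (5.34% over all). Fewer loci lie farther apart by construction, and the cause of the other shifts was not tested. Under each of these settings the loci in all 3 lists were wider than loci of 1 list, which merging favours by construction. Bases covered by each list were not compared under these settings. The loci in all 3 lists also ranked deeper in every list than loci of 1 list under each setting. Chromosome 4 lay above the share over all loci and X below it throughout, and 3′ ends agreed within 5 nt more often than 5′ ends. A neighbour 50 to 75 nt downstream was more frequent for loci in all 3 lists than for loci of 1 list under each setting. No paired analysis was possible because each purification had 1 library, and for the same reason no library could be left out. Reads per library are not given, so what a shallower list would have missed could not be measured.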

Other observations

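Peaks whose depth is a whole number, as a peak with the same depth at every base must have, were less frequent in the loci in all 3 lists. Among peaks of at least 15 nt the depth was whole (tolerance 1e-09) for 25.3% in loci in all 3 lists (24.0 to 26.5) against 67.7% in loci of 1 list in eIF4AIII/Y14. The shares were 13.1% against 54.0% in Btz/eIF4AIII and 32.7% against 68.7% in Y14/eIF4AIII. Narrow peaks are more often of this kind in eIF4AIII/Y14 and Y14/eIF4AIII, so widths of 15 to 40 nt were set side by side. There the shares were 50.1% against 76.9% in eIF4AIII/Y14, 28.3% against 66.3% in Btz/eIF4AIII and 64.1% against 90.4% in Y14/eIF4AIII. At 41 to 60 nt the difference was seen in Btz/eIF4AIII (25.6% against 69.7%) and Y14/eIF4AIII (44.0% against 68.1%), and not in eIF4AIII/Y14 (2.69% against 3.02%). These values were examined with the frequency of such peaks in the whole lists known, and their cause was not tested.

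Very small loci in all 3 lists were rare, with 23 under 10 nt wide (0.540%), of which 1 was a single base. Of the 62 loci with both ends identical, 7 were under 10 nt.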
